A study of Homo sapiens with 24 samples.

Results

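The MAX network is a set of transcription factors built around the protein MAX, and 8 of its genes were examined here out of the 23106 gene symbols counted in each library. They were taken by symbol and are MYC, MAX, MXI1, MXD1, MXD3, MXD4, MNT and MGA. Polyadenylated RNA had been sequenced from 4 established human lines: A549 from a lung cancer, HCT116 from a colorectal cancer, PC3 from a prostate cancer and T47D from a breast cancer. In each line, 3 libraries came from cells in 21% oxygen (normoxia) and 3 from cells held in 0.5% oxygen (hypoxia) for 16 h, which gives 8 groups and 24 libraries. The labels name no added gene, deletion or drug in any group, and each line stands for its tumor type by 1 established line. A549 and PC3 cells were grown in F12K medium, HCT116 cells in McCoy's 5a and T47D cells in DMEM, so differences between lines and differences between media cannot be told apart for the lines grown in different media. The labels do not say that replicates were separate cultures, and p values therefore measure only the spread between these libraries.

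MYC and its antagonists share MAX as a partner. MYC-MAX dimers bind E-box DNA and activate genes of ribosome production, nucleotide synthesis and the cell cycle, and dimers of MAX with MXI1, MXD1, MXD3, MXD4 or MNT bind the same DNA and recruit the SIN3-HDAC corepressor, which removes acetyl groups from histones. MGA is a very large MAX partner that sits in a Polycomb complex (PRC1.6) together with PCGF6, L3MBTL2 and E2F6. In hypoxia, the HIF transcription factors bind the core sequence ACGTG or GCGTG, and MXI1 is a known HIF target whose product opposes MYC. The change of these genes with oxygen in each line is the question that the comparison addresses. MXI1 belongs to a core list of HIF targets that the study drew in part from these same libraries, so its rise is not independent evidence of its direction.

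Library totals ranged from 22698584 to 62850747 counts, and every member was above the floor of 3 counts (at most 0.132 CPM, the count scaled to library size) in all 24 libraries. The smallest single count was 192, for MXD1 in HCT116 cells. Each line was checked against markers of the line or of its tissue. AKR1B10 was at 3052 to 3734 CPM in A549 cells, HOXB13 at 70.6 to 127 CPM in PC3 cells and ESR1 at 108 to 177 CPM in T47D cells. Some defining markers were absent, since NKX2-1 and SFTPB were at or near 0 in A549 cells, VIL1, CDH17 and LGR5 in HCT116 cells, and KLK3 in PC3 cells. PTPRC, PECAM1, COL1A2 and CD14, which mark non-epithelial cells, reached at most 3.76 CPM in any library. Each library pools a whole culture, so a change in all cells and a change in some of them cannot be told apart.

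Because 7 of the members have an annotated start in the promoter tables and several moved together, the bases just before the starts of MXI1, MXD4 and MNT are shown. MXI1 has 3 annotated starts and is the member with the HIF link, while MXD4 and MNT are the members whose windows hold the E-box CACGTG. Windows of at most 250 bases upstream of each start come from RefSeq (GRCh38.p14), were located in GRCh37 by exact match, and stop before the first annotated exonic base. Capitals mark ACGTG or GCGTG on either strand and the E-box CACGTG, which contains ACGTG on both strands.
MXI1 start 1, chr10:111967113-111967362, plus strand: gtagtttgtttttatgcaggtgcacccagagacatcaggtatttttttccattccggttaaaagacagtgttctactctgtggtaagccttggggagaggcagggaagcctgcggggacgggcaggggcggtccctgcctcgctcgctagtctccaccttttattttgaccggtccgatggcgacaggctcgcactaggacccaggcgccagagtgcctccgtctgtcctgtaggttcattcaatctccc
MXI1 start 2, chr10:111969739-111969988, plus strand: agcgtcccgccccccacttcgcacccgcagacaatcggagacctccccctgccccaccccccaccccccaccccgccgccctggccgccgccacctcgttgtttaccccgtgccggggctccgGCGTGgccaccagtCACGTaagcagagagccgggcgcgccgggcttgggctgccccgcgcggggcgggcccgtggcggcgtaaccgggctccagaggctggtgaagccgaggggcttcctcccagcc
MXI1 start 3, chr10:111985504-111985750, plus strand: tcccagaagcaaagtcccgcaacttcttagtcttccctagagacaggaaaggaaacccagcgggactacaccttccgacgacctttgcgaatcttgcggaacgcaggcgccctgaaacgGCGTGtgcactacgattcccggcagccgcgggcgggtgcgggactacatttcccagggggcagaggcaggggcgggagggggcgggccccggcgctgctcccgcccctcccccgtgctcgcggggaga
MXD4 start 1, chr4:2263837-2264086, minus strand: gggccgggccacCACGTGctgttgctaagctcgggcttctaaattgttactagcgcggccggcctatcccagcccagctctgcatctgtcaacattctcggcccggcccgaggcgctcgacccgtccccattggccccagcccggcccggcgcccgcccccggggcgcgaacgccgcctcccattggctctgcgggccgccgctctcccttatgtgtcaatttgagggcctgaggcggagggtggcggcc
MNT start 1, chr17:2304399-2304604, minus strand: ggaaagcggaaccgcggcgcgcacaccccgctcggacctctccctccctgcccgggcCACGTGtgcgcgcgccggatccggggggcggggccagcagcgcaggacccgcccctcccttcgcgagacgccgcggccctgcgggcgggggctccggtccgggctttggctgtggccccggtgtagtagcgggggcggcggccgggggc
The window of the second MXI1 start holds both GCGTG and, on the other strand, ACGTG, the window of the third start holds GCGTG, and that of the first start holds neither. Over the 12 full windows of 250 bases of members, annotated exonic bases included, 8 hold ACGTG or GCGTG and 2 hold CACGTG. Of all 35116 RefSeq windows of the same length, 43.2% hold ACGTG or GCGTG and 6.34% hold CACGTG, so the letters are common and a match is a description of the window only.

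In hypoxia, the repressors MXI1 and MXD4 rose in every line, MYC rose in HCT116 and T47D cells, and MAX passed the test in no line. The rise of both repressors in PC3 cells, and of MXD4 in T47D cells, did not pass in some alternative fits. A gene is called here when it differs by more than 1.2-fold and its p, from edgeR's quasi-likelihood test with Benjamini-Hochberg adjustment over all genes tested in that line, is below 0.05. In A549 cells, 5 of the 8 members were called higher, against 17.6% of all genes tested. In HCT116 cells the count was 6, against 23.3% of all genes. PC3 cells had 4 members called higher, against 16.6%, and T47D cells had 3, against 6.55%. No member was called lower in any line, none was lower at an unadjusted p under 0.05, and DESeq2 also called 0 lower.

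The members' median log2 fold change was 0.50 in A549, 1.30 in HCT116, 0.24 in PC3 and 0.45 in T47D cells, and the median over all genes lay between -0.03 and -0.01. MXI1 and MXD4 were called higher in all 4 lines, as were 2.58% of the 11734 genes tested in all of them. MXD1 and MNT were called in 3 lines, and 9.13% of genes were called higher in at least 3. MYC was called in 2 lines, MXD3 and MGA in 1 each. The hypoxic and normoxic libraries did not overlap for 6 members in A549 cells, 6 in HCT116, 4 in PC3 and 4 in T47D, while 47.9%, 60.4%, 50.6% and 32.3% of all genes in these lines had no overlap. The share of members without overlap was thus close to that of all genes in PC3 cells.

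**Figure D1:**
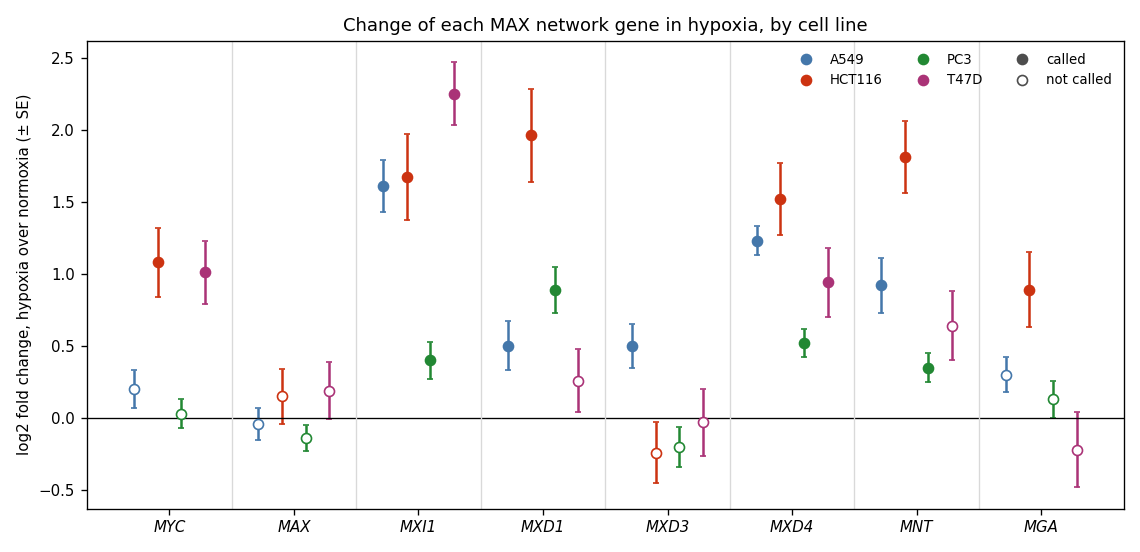
Log2 fold change of each member in hypoxia over normoxia, in each of the 4 cell lines (points, edgeR estimate; bars, SE; 3 libraries per group). Filled points are called. MXI1 and MXD4 are filled in all 4 lines, MAX in none, and MXI1 runs from 0.40 in PC3 to 2.25 in T47D cells.

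MYC is the activator of the network (GRCh37 chr8:128747680-128755197, plus strand). In HCT116 cells it stood at 336, 183 and 252 CPM in normoxia and at 602, 590 and 576 CPM in hypoxia. In T47D cells it stood at 43.7, 70.4 and 72.1 CPM in normoxia and at 112, 147 and 134 CPM in hypoxia. Every hypoxic library was above every normoxic one in both lines. Its log2 fold change was 1.08 ± 0.24 (SE, adjusted p = 0.00253) in HCT116 cells and 1.01 ± 0.22 (adjusted p = 0.0147) in T47D cells, a near doubling in each (2.11-fold and 2.01-fold). CPM values share 1 scaling over all libraries and fold changes come from the fit of each line, so ratios of CPM means differ slightly from the folds given.

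In A549 cells MYC was at 125, 161 and 175 CPM in normoxia and at 164, 184 and 185 CPM in hypoxia, and the groups overlapped. The log2 fold change of 0.20 ± 0.13 did not pass the test (adjusted p = 0.245). PC3 cells had 225, 253 and 215 CPM in normoxia and 222, 266 and 248 CPM in hypoxia, also with overlap (log2 fold change 0.03 ± 0.10, adjusted p = 0.812). In T47D cells the call was lost without normoxic replicate 1 (log2 fold change 0.82, adjusted p = 0.117) or replicate 2 (1.12, adjusted p = 0.0501). Calls over all genes dropped as well, from 6.55% called higher to 1.26% and 2.26% in these fits, so the loss is not particular to MYC.

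MAX, the shared partner (chr14:65472892-65569413, minus strand), was called in no line. Its libraries lay between 47.4 and 98.0 CPM over all lines and both states, and its groups overlapped in every line. The log2 fold changes were -0.04 ± 0.11 in A549, 0.15 ± 0.19 in HCT116, -0.14 ± 0.09 in PC3 and 0.19 ± 0.20 in T47D cells, with adjusted p from 0.274 to 0.771. MAX lies across FNTB on the opposite strand, and the strand setting of the counting is not named, so reads of the pair cannot be told apart.

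MXI1 (chr10:111967363-112047123, plus strand), which represses MYC targets together with MAX, had the highest fold change of the 8 members in A549 and T47D cells. In T47D cells it went from 7.91, 9.12 and 10.1 CPM in normoxia to 45.3, 56.7 and 34.4 CPM in hypoxia. In A549 cells it went from 11.6, 10.7 and 9.41 CPM to 42.9, 25.2 and 29.0 CPM. The states were far apart in both lines, at 4.75-fold in T47D cells (log2 fold change 2.25 ± 0.22, adjusted p = 5.53e-05) and 3.06-fold in A549 cells (1.61 ± 0.18, adjusted p = 1.04e-04). Few genes rose more: 1.15% of the genes tested in T47D cells and 1.61% in A549 cells had a larger increase.

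In HCT116 cells, MXI1 was already at 30.5, 38.6 and 43.3 CPM in normoxia and stood at 68.5, 197 and 124 CPM in hypoxia. The hypoxic libraries were all higher but spread widely, with replicate 1 lowest. The log2 fold change was 1.67 ± 0.30 (adjusted p = 6.78e-04). PC3 cells moved least, from 10.6, 13.0 and 13.0 CPM to 15.7, 16.0 and 18.7 CPM. That change of 0.40 ± 0.13 passed the test narrowly (adjusted p = 0.0407) and lost its call without any 1 of the 3 hypoxic libraries or normoxic replicate 1, with adjusted p of 0.0659, 0.0824, 0.138 and 0.138.

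**Figure D2:**
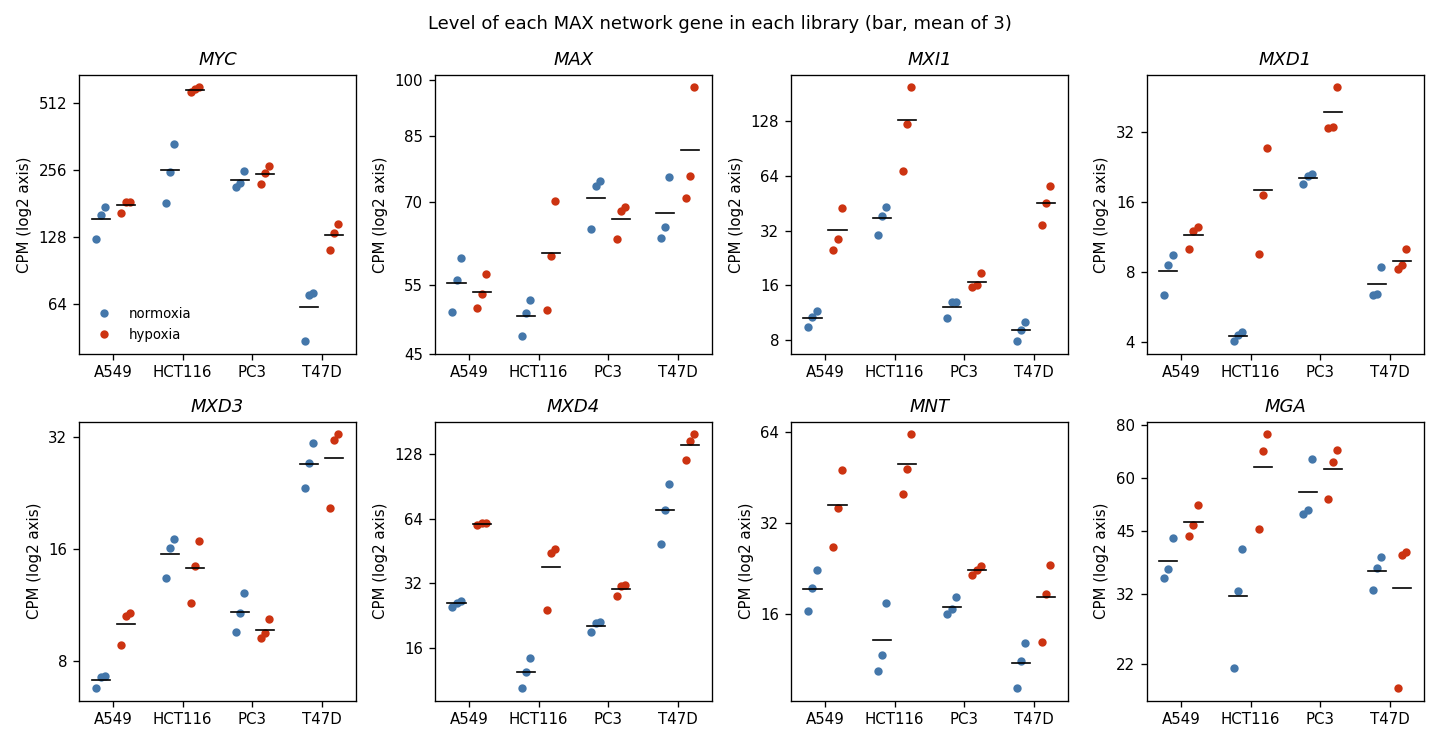
Level of each member in each of the 24 libraries, in CPM on a log2 axis, by cell line. Blue points are normoxic libraries, red points hypoxic ones, and the black bar is the mean of 3. MYC in HCT116 cells sits at 576 to 602 CPM in hypoxia against 183 to 336 CPM in normoxia, and MAX overlaps between states in every line.

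MXD4 (chr4:2249159-2263836, minus strand) is the other repressor that rose in all lines. In A549 cells it went from 24.9, 26.6 and 26.0 CPM in normoxia to 61.2, 59.7 and 61.5 CPM in hypoxia, the tightest replicates of any called member. HCT116 cells went from 10.4, 12.3 and 14.3 CPM to 24.1, 44.2 and 46.3 CPM. The log2 fold changes were 1.23 ± 0.10 (adjusted p = 6.62e-06) and 1.52 ± 0.25 (adjusted p = 3.62e-04). T47D cells held the most MXD4, with 48.9, 70.1 and 92.7 CPM in normoxia and 120, 148 and 159 CPM in hypoxia, and PC3 cells went from 18.9, 20.9 and 21.1 CPM to 31.2, 31.6 and 28.0 CPM. The states did not overlap in either line, and the log2 fold changes were 0.94 ± 0.24 in T47D (adjusted p = 0.0235) and 0.52 ± 0.10 in PC3 cells (adjusted p = 0.00637). The PC3 call was lost in 1 fit of all libraries (0.57, adjusted p = 0.0860) and with the GC and length correction (0.20, adjusted p = 0.176). In T47D cells the call was lost without normoxic replicate 1 (0.75, adjusted p = 0.155) or replicate 2 (0.95, adjusted p = 0.0977). In those fits 1.26% and 2.26% of all genes were called higher, against 6.55% with every library.

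MXD1 (chr2:70124820-70170077, plus strand), a repressor known from cells leaving the cycle, rose in 3 lines and most in HCT116 cells, where it was the member with the lowest level per length in normoxia. There it went from 4.44, 4.29 and 4.04 CPM to 9.58, 27.4 and 17.2 CPM (log2 fold change 1.96 ± 0.32, adjusted p = 3.55e-04). PC3 cells went from 21.1, 19.1 and 20.8 CPM to a mean of 39.1 ± 9.45 CPM (SD, n = 3), with the lowest hypoxic library at 33.5 CPM (0.89 ± 0.16, adjusted p = 0.00461). MXD1, and not MXI1, thus had the highest fold change of the members in each of these lines. In A549 cells MXD1 changed by 0.50 ± 0.17 (adjusted p = 0.0397), a call that ended without hypoxic replicate 1 or 3 or normoxic replicate 1 or 3 (adjusted p from 0.0541 to 0.155). T47D cells, at 6.47, 6.40 and 8.41 CPM against 8.57, 10.1 and 8.27 CPM, overlapped between states (0.26 ± 0.22, adjusted p = 0.453). MXD1 shares part of its span with SNRNP27 on the same strand.

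MXD3 (chr5:176728462-176739758, minus strand), the repressor linked to the S phase of the cell cycle, was called in 1 line. It was called higher in A549 cells, from 7.28, 7.30 and 6.79 CPM to 10.6, 10.8 and 8.86 CPM (0.50 ± 0.15, adjusted p = 0.0222). That call was lost without hypoxic replicate 1 or 2 or normoxic replicate 1 or 2, with adjusted p from 0.0540 to 0.0933. Its values in the other lines were -0.24 ± 0.21 in HCT116, -0.20 ± 0.14 in PC3 and -0.03 ± 0.23 in T47D cells, with adjusted p from 0.279 to 0.945. The states overlapped in all 3. MXD3 overlaps PRELID1 on the opposite strand and RAB24 on its own, so its counts are uncertain.

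MNT (chr17:2287367-2304398, minus strand), a MAX partner that most dividing cells express and that opposes MYC directly, was called higher in A549, HCT116 and PC3 cells. HCT116 cells showed the widest step, from 17.4, 11.7 and 10.4 CPM to 40.0, 63.0 and 48.2 CPM (1.81 ± 0.25, adjusted p = 1.66e-04). A549 cells went from 16.4, 19.5 and 22.4 CPM to 48.0, 35.9 and 26.6 CPM (0.92 ± 0.19, adjusted p = 0.00373). PC3 cells went from 16.0, 18.2 and 16.6 CPM to 21.6, 23.0 and 22.4 CPM, a small step (0.35 ± 0.10, adjusted p = 0.0257) whose call ended without any 1 hypoxic library or normoxic replicate 1 (adjusted p from 0.0555 to 0.0996). In T47D cells the states did not overlap, at 9.12, 12.8 and 11.2 CPM against 18.6, 23.2 and 12.9 CPM, but the change of 0.64 ± 0.24 missed the threshold (adjusted p = 0.0921). It passed without hypoxic replicate 3 (0.84, adjusted p = 0.0130).

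MGA (chr15:41913332-42065279, plus strand), the Polycomb-linked partner, was called higher in HCT116 cells, from 40.9, 21.5 and 32.6 CPM to 76.1, 45.5 and 69.7 CPM (0.89 ± 0.26, adjusted p = 0.0119). In A549 cells its states did not overlap, but the change of 0.30 ± 0.12 was not called (adjusted p = 0.0649) and was called without hypoxic replicate 3 (0.37, adjusted p = 0.0367) or normoxic replicate 3 (0.40, adjusted p = 0.0218). PC3 and T47D cells gave 0.13 ± 0.13 and -0.22 ± 0.26, with overlap in both. In T47D cells, hypoxic replicate 3 stood at 19.3 CPM while the other two stood at 40.2 and 39.7 CPM.

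GC content moved with the response in every line, and MXD3, MXD4 and MNT are GC-rich. The canonical transcripts hold 65.6%, 63.5% and 61.3% GC for these genes, against 43.7% for MXI1, 42.5% for MXD1, 43.2% for MGA, 48.8% for MYC and 49.4% for MAX. Among all genes with at least 60% GC, 27.6% were called higher in A549, 38.5% in HCT116, 30.7% in PC3 and 11.3% in T47D cells. Among genes under 45% GC, the shares were 9.99%, 10.4%, 7.55% and 2.98%. With a correction for GC content and length, the changes of MNT and MXD4 in HCT116 cells were smaller but still called, at 1.09 (adjusted p = 0.00112) and 0.84 (adjusted p = 0.0121). MNT in A549 cells also stayed called, at 0.55 (adjusted p = 0.0126). No label names pairs of libraries, and those of PC3 and T47D cells were taken as paired because same-numbered ones deviated together. In PC3 cells the correction with the replicate block ended the calls of MXD4 (0.20, adjusted p = 0.188) and MNT (-0.01, adjusted p = 0.961). In T47D cells, MXD4 was called with the correction and the replicate block (0.63, adjusted p = 0.00725) and not with the correction alone (0.62, adjusted p = 0.0764). MXI1 was called in all 4 lines with this correction, from 0.50 in PC3 to 2.32 in T47D cells in the paired fits and at 1.70 in A549 and 1.89 in HCT116 cells.

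**Figure D3:**
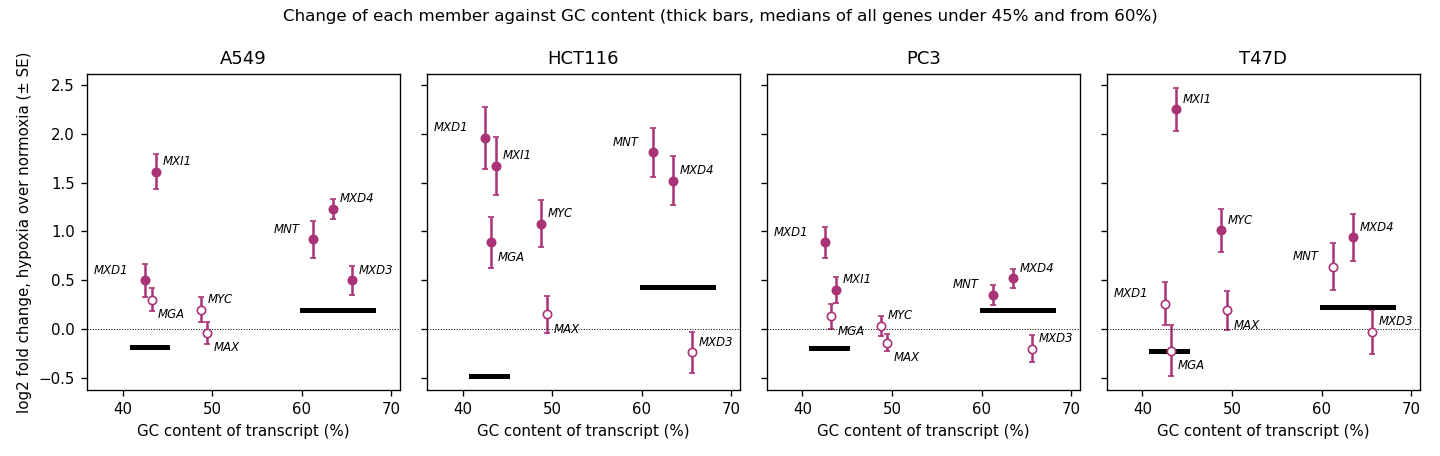
Log2 fold change of each member in hypoxia (points, with SE; filled when called) against the GC content of its canonical transcript in percent, with 1 panel per cell line. Thick bars are the medians of all genes tested under 45% GC and from 60% GC, which are -0.48 and 0.43 in HCT116 cells. MXI1 and MXD1 sit at the GC-poor end and are above the GC-poor median in every line.

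Whether lines responded differently was tested with an interaction term in 1 fit of all 24 libraries. It passed for MYC (adjusted p = 0.00819), MXI1 (0.00760), MXD1 (0.00588) and MNT (0.0103), 4 of the 8 members, against 18.3% of the 16089 genes tested. MXD4 (0.0555), MGA (0.0719), MXD3 (0.170) and MAX (0.311) did not pass, which does not show that their responses were alike. Of the 24 pairwise differences for the 4 genes that passed, 10 had an adjusted p under 0.05, and 9 of these involved HCT116 cells. The shares of all genes with a different response were 16.7% for A549 against HCT116, 14.9% for HCT116 against PC3 and 9.07% for HCT116 against T47D cells. They were 0.758% for A549 against PC3, 2.11% for A549 against T47D and 2.25% for PC3 against T47D cells.

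The change of MYC was smaller in A549 than in HCT116 cells by 0.99 on the log2 scale (A549 minus HCT116, -0.99 ± 0.27, adjusted p = 0.0178) and larger in HCT116 than in PC3 cells by 1.11 ± 0.27 (adjusted p = 0.0102). The difference between PC3 and T47D cells missed the threshold (adjusted p = 0.0553). For MXI1, the change in PC3 cells was below that in T47D cells (PC3 minus T47D, -1.87 ± 0.37, adjusted p = 0.00502) and below that in HCT116 cells (HCT116 minus PC3, 1.33 ± 0.37, adjusted p = 0.0178). MXD1 and MNT changed more in HCT116 cells than in each of the other lines, by 1.14 to 1.75 for MXD1 (adjusted p from 0.00438 to 0.0312) and 1.02 to 1.54 for MNT (adjusted p from 0.00438 to 0.0341). These calls depended on the libraries kept, and fits without 1 replicate number hold fewer libraries per group. Without replicate 1, 5 members passed and 3.94% of all genes did. Without replicate 2 of every group, 0 members passed the edgeR interaction test (4 at an unadjusted p under 0.05) and 1.02% of all genes did. Without replicate 3, MXI1 alone passed and 15.3% of all genes did.

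Lines also differed in their levels within an oxygen state. Over the 8 members and 6 pairs of lines, 32 of 48 contrasts were called in normoxia and 33 in hypoxia, close to the 66.0% and 64.6% called over all genes. MYC was ordered HCT116, PC3, A549, T47D in both states, with 4.14 times as much in the first as in the last in normoxia and 4.49 times in hypoxia. In normoxia HCT116 and PC3 cells did not differ beyond their spread (adjusted p = 0.509), and in hypoxia A549 and T47D cells were not called different. MXI1 had the same order in normoxia, where only HCT116 cells stood above their neighbor (9.48e-06), and PC3, A549 and T47D cells did not differ in turn (0.500 and 0.464). In hypoxia its order became HCT116, T47D, A549, PC3, and the ratio of first to last widened from 4.14 to 7.71. T47D and A549 cells did not differ there (0.0932).

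Among the other repressors, MXD1 was highest in PC3 cells in both states, and MXD3 and MXD4 were highest in T47D cells in both states, each apart from the next line (adjusted p from 1.05e-06 to 4.27e-04). MXD4 in normoxia was 5.73 times as high in T47D as in HCT116 cells, the widest spread of any member in that state. MAX, MNT and MGA were nearly level, since the first line was at most 1.76 times the last in normoxia and no neighbors in their order were called different, although 2 or 3 of the 6 line pairs of each were. In hypoxia, MNT split, with HCT116 and A549 cells (adjusted p = 0.0900 between them) above PC3 and T47D cells (A549 over PC3, adjusted p = 0.00824).

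Per length of the canonical transcript (RPKM, CPM per kilobase of transcript), MYC was the most abundant member in A549, HCT116 and PC3 cells in both states, at mean levels of 41.3 to 158 RPKM. T47D cells were different. There MAX led in normoxia at 33.8 ± 3.30 RPKM (SD, n = 3), followed by MXD3 at 25.5 ± 3.48 and MXD4 at 18.2 ± 5.66, and MYC stood at 16.7 ± 4.28 RPKM. In hypoxia MYC reached 35.3 ± 4.75 RPKM there, beside 40.6 ± 7.19 for MAX and 36.8 ± 5.20 for MXD4. MXI1 in HCT116 cells went from 10.8 ± 1.86 to 37.3 ± 18.5 RPKM, beside a MAX level in hypoxia that was lower by less than the spread of MXI1. MXD1 and MGA were low in all lines, at 0.767 to 7.04 and 2.60 to 5.23 RPKM. The order that involves MXD3 depends on its annotated length, since its canonical transcript has 1067 bases and all its annotated exons together 4743.

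The ratio of MYC to MXI1, both per length, was lower in hypoxia in A549 and T47D cells, without overlap between states. Its log2 value in T47D cells was 2.36, 2.85 and 2.73 in normoxia and 1.21, 1.28 and 1.86 in hypoxia. In A549 cells it was 3.33, 3.81 and 4.11 in normoxia and 1.84, 2.77 and 2.57 in hypoxia. The mean differences were -1.20 and -1.36, so the ratio was lower in T47D cells although MYC itself rose there. PC3 cells, at 4.30, 4.18 and 3.94 against 3.72, 3.96 and 3.62, gave a mean difference of -0.38 with a slight overlap. Within the 3 same-numbered pairs of that line, which was taken as paired, the differences were -0.58, -0.22 and -0.32, all negative. HCT116 cells gave a mean difference of -0.44 with a wide overlap, at 3.36, 2.15 and 2.44 against 3.03, 1.49 and 2.12. Each hypoxic library there was below the normoxic one of the same number, although these were not taken as pairs. These ratios are descriptions and were given no test.

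Against the summed level per length of MXI1, MXD1, MXD3, MXD4 and MNT, the log2 ratio of MYC changed by -0.79 in A549, 0.09 in HCT116, -0.27 in PC3 and 0.40 in T47D cells. T47D cells were the line where this sum exceeded MYC in every library, with log2 ratios of -2.00, -1.40 and -1.44 in normoxia and -1.38, -1.02 and -1.25 in hypoxia. Within the MXD family (MXI1, MXD1, MXD3 and MXD4), the share of MXI1 went from 17.0% to 25.2% in A549, from 36.7% to 56.9% in HCT116 and from 5.46% to 17.0% in T47D cells, with no overlap in each. It was 15.6% and 16.8% in PC3 cells, where MXD1 went from 16.2% to 24.3%. The mean share of MXD3 was 37.4% to 53.9% over the lines in normoxia and 22.3% to 33.9% in hypoxia, with no overlap within any line. Shares across genes depend on the lengths used, and when levels were not divided by length the PC3 difference for MXI1 changed sign, to -1.51 percentage points, and the HCT116 difference went from 20.1 to 9.80 points. With the length of all annotated exons the HCT116 difference was 12.1 points.

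**Figure D4:**
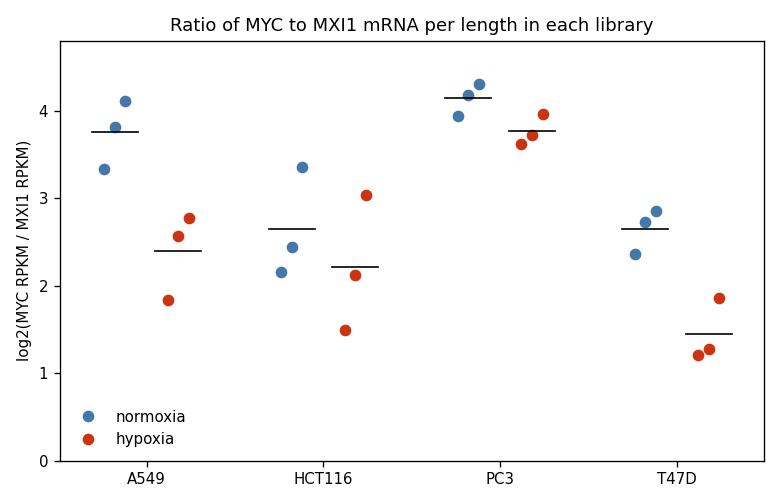
Log2 ratio of MYC to MXI1 level per length in each library, by cell line (blue, normoxia; red, hypoxia; black bar, mean of 3). The hypoxic libraries of A549 (1.84 to 2.77) and T47D cells (1.21 to 1.86) lie below all their normoxic ones, and those of PC3 and HCT116 cells overlap.

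The genes around the network were then counted from lists, with the share of all genes called in that direction as background. SIN3-HDAC, the corepressor of MXD proteins and MNT, had a few members called higher in each line, somewhat above the share of all genes, and few lower. With the correction for GC content and length, 2 of 16 rose in A549 cells, where 15.1% of all genes did, and the share was no longer above. In HCT116 cells 6 rose, and in PC3 cells 8 with the replicate block, against 19.0% and 12.9%. The counts and values that follow are without the correction. Of its 16 genes, 4 rose in A549, 5 in HCT116, 4 in PC3 and 2 in T47D cells (25.0%, 31.2%, 25.0% and 12.5%, against 17.6%, 23.3%, 16.6% and 6.55% of all genes), and 1, BRMS1L, fell in HCT116 cells (chosen after its values were seen). SAP30, a subunit that holds the complex together and that is itself on the study's list of HIF targets, rose in all 4 lines by 0.74, 0.98, 0.47 and 0.97 in the order above. ING2, which reads a histone mark of active genes, also rose in all 4 (0.50, 0.81, 0.37 and 0.77). The list medians were -0.07, 0.23, 0.20 and 0.07, and most genes of the list were not called.

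In the PRC1.6 complex that holds MGA, more genes were called lower than higher in each line without a correction for GC content. With the correction for GC content and length (and the replicate block in the paired PC3 and T47D lines), 1 fell in A549 and 2 in each other line, 2 rose in each line but T47D, where 1 did, and medians lay between -0.13 and -0.03. In those fits 16.5%, 20.2%, 13.5% and 13.6% of all genes fell and 15.1%, 19.0%, 12.9% and 12.7% rose. Falling genes then outnumbered rising ones in T47D cells only. Values that follow are without the correction. Of 8 genes tested, 2 fell in A549, 4 in HCT116, 3 in PC3 and 3 in T47D cells, against 17.8%, 27.0%, 15.7% and 6.69% of all genes called lower. In T47D cells, which were taken as paired, the replicate block raised that last background to 10.5% and left the count at 3. PCGF6, the subunit that defines the complex, fell in all 4 lines, by 0.59, 1.24, 0.68 and 0.83 on the log2 scale. YAF2 fell in HCT116, PC3 and T47D cells by 1.73, 0.68 and 1.08, while its paralog RYBP rose in A549, HCT116 and PC3 cells by 0.43, 1.02 and 0.32. CBX3, a reader of repressive histone marks, completed the falling genes in A549, HCT116 and PC3 cells, and E2F6 did so in HCT116 and T47D cells (both chosen after their values were seen). List medians were -0.21, -0.47, -0.22 and -0.48.

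MYC targets of ribosome biogenesis fell in A549 and PC3 cells, where MYC was not called. Of the 32 genes, 20 fell in A549 cells (62.5%, against 17.8% of all genes) and 13 in PC3 cells (40.6%, against 15.7%), and 0 rose in either by edgeR or by DESeq2, with 1 higher in A549 and 0 in PC3 cells at an unadjusted p under 0.05. In HCT116 cells, where MYC rose, 7 rose and 9 fell (21.9% and 28.1%, against 23.3% and 27.0%), near the shares of all genes. In T47D cells 2 fell (NOP56 and, chosen after its values were seen, NOP2) and 0 rose by edgeR (2 rose by DESeq2, and 2 were higher at an unadjusted p under 0.05), and with the replicate block 4 fell and 2 rose. The share that fell, 6.25%, was near the 6.69% of all genes. Medians were -0.43, 0.19, -0.20 and -0.23 in A549, HCT116, PC3 and T47D cells. NOP56, a core protein of small nucleolar ribonucleoproteins, fell in all 4 lines, by up to 1.17 in HCT116 cells and by 0.69 in T47D cells on the log2 scale. GNL3 (nucleostemin) fell by 1.05, 1.12 and 0.73 in A549, HCT116 and PC3 cells and was at -0.64 in T47D cells (adjusted p = 0.0615).

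The second set of MYC targets, for nucleotide and polyamine synthesis and the cell cycle, was split. Of 15 genes tested, 3 rose and 4 fell in A549 cells (20.0% and 26.7%, against 17.6% and 17.8% of all genes), and 3 rose and 1 fell in HCT116 cells (20.0% and 6.67%, against 23.3% and 27.0%). In PC3 cells 3 fell (20.0%, against 15.7%), and in T47D cells 1 rose and 1 fell (6.67% each, against 6.55% and 6.69%). Most of these shares were near those of all genes. CTPS1, which makes CTP, fell in all 4 lines by 0.38, 0.88, 0.46 and 1.02, and PPAT, the first enzyme of purine synthesis, fell by 0.73 in A549 and 0.33 in PC3 cells. IMPDH2, for guanine nucleotides, rose by 0.47, 0.89 and 0.75 in A549, HCT116 and T47D cells, and CAD, for pyrimidines, by 0.66 and 0.85 in A549 and HCT116 cells.

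Genes that MYC is known to repress, all inhibitors of the cell cycle or of growth, rose in HCT116 cells in 5 of 5 cases, where 23.3% of all genes were called higher. CDKN1C (p57) rose there by 2.52, and also in PC3 and T47D cells, and in A549 cells its change was 1.34 ± 0.53 (adjusted p = 0.0676). CDKN1A (p21) rose by 1.46 in HCT116 and 1.47 in T47D cells and was at -0.11 and 0.07 in A549 and PC3 cells. CDKN2B rose by 1.19 in HCT116 and 1.03 in PC3 cells, and CDKN1B by 0.70 in A549 and 0.69 in HCT116 cells. GADD45A fell in A549 and PC3 cells, by 0.74 and 0.54, and rose by 0.89 in HCT116 cells.

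**Figure D5:**
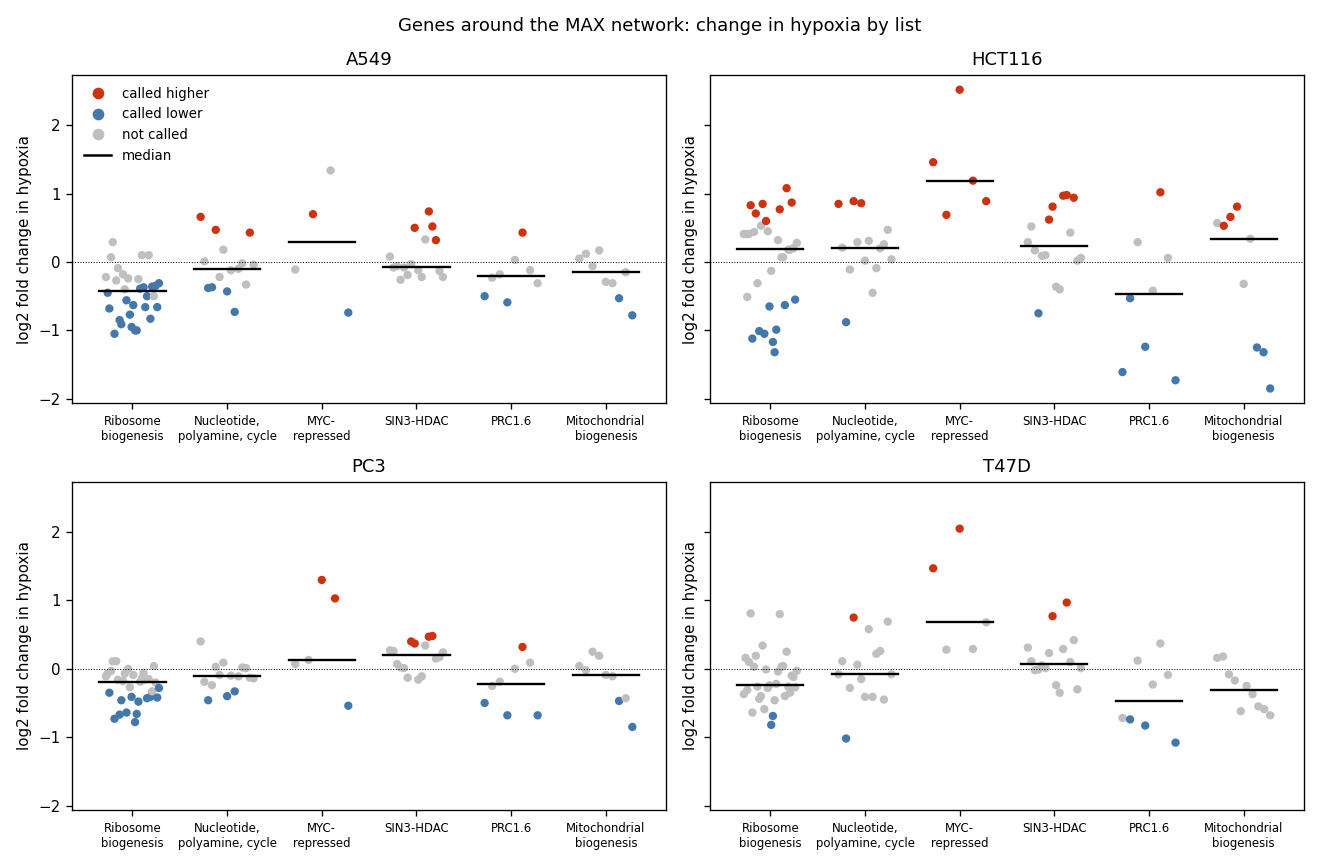
Log2 fold change in hypoxia of each gene in 6 lists around the network, with 1 panel per cell line (red, called higher; blue, called lower; gray, not called; black bar, list median). The ribosome biogenesis genes lie mostly below 0 in A549 cells (median -0.43, with 20 of 32 called lower), and all 5 MYC-repressed genes are called higher in HCT116 cells.

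The extended network has its own partner of MAX-like type, MLX, which pairs with the glucose sensors MLXIP (MondoA) and MLXIPL (ChREBP). MLX fell in A549, HCT116 and T47D cells by 0.49, 1.12 and 1.04 and was at -0.25 ± 0.12 in PC3 cells (adjusted p = 0.144). MLXIP rose in A549 cells by 0.56, and MLXIPL fell in A549 and HCT116 cells by 1.38 and 1.12. The MondoA target ARRDC4 rose in HCT116 and T47D cells by 0.89 and 1.01 and fell in PC3 cells by 1.01, and TXNIP rose by 2.23 in T47D cells and fell by 0.33 in PC3 cells. Of the MYC paralogs, MYCL (counted as MYCL1) rose in A549 and T47D cells by 1.19 and 1.92, and MYCN was too low to test except in T47D cells (-0.43 ± 1.03, adjusted p = 0.803).

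Among MYC cofactors, TRRAP, the scaffold of histone acetyltransferase complexes, rose in A549, HCT116 and PC3 cells by 0.58, 1.17 and 0.41. ACTL6A, an actin-related subunit of chromatin complexes, fell in HCT116 and PC3 cells by 0.86 and 0.44. Of the genes for turnover of MYC protein, the ubiquitin ligase HUWE1 rose in A549, HCT116 and PC3 cells by 0.74, 1.57 and 0.63, as did the kinase GSK3B by 0.51, 1.06 and 0.58. KIAA1524 (CIP2A), which protects MYC from dephosphorylation, fell in the same lines by 0.70, 1.09 and 0.38, and USP36, which removes ubiquitin from MYC, fell in A549 and PC3 cells by 0.37 and 0.38. Of the cofactors, 9.09% rose in A549, 45.5% in HCT116 and 20.0% in PC3 cells, and of the 13 turnover genes 15.4%, 30.8% and 23.1% did, against 17.6%, 23.3% and 16.6% of all genes. The shares that fell were 9.09%, 9.09% and 10.0% of cofactors and 23.1%, 7.69% and 15.4% of turnover genes, against 17.8%, 27.0% and 15.7%. With the GC and length correction (and the replicate block in PC3 cells), cofactors that rose numbered 0, 2 and 0 in the same order. TRRAP was thus not called in A549 or PC3 cells. Turnover genes that rose numbered 1, 3 and 1, against 15.1%, 19.0% and 12.9% of all genes. Those that fell were 2, 1 and 1 cofactors and 3, 1 and 1 turnover genes, against 16.5%, 20.2% and 13.5%. In T47D cells 0 of the 24 genes were called by edgeR and 0 by DESeq2, while 2 were higher and 2 lower at an unadjusted p under 0.05. With the replicate block in that paired line, 1 turnover gene was called lower, and in 1 fit of all libraries 2 cofactors and 2 turnover genes were called higher and 1 turnover gene lower. MYC protein was not measured in these libraries.

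Mitochondrial biogenesis genes, some of which MYC is known to raise and MXI1 to oppose, were mostly not called except in HCT116 cells. Of 9 tested, 22.2% fell in A549, 33.3% in HCT116 and 22.2% in PC3 cells, near the 17.8%, 27.0% and 15.7% of all genes. The shares were further from those of all genes with the correction for GC content and length (and the replicate block in PC3 cells). Then 4, 3 and 3 of the 9 fell and 0 rose, where 16.5%, 20.2% and 13.5% of all genes fell. The values that follow are without the correction. In HCT116 cells 33.3% rose, against 23.3%. TFB2M and TFAM, factors of mitochondrial transcription, fell in A549, HCT116 and PC3 cells, TFB2M by 0.78, 1.85 and 0.85 and TFAM by 0.53, 1.25 and 0.47. TFB1M fell with them in HCT116 cells, by 1.32, where NRF1, POLG and POLRMT rose by 0.53, 0.66 and 0.81 (all 4 chosen after their values were seen). In T47D cells TFB2M was at -0.68 ± 0.25 (adjusted p = 0.0840) and TFAM at -0.55 ± 0.20 (adjusted p = 0.0829), and 0 of 10 were called by edgeR or DESeq2, with 3 lower at an unadjusted p under 0.05 and 1 called lower in 1 fit of all libraries.

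List counts depended on GC content and on single libraries. With the correction for GC content and length (and the replicate block in the paired lines), of the 32 ribosome biogenesis genes, 24 fell in A549, 3 in HCT116, 14 in PC3 and 7 in T47D cells, where 16.5%, 20.2%, 13.5% and 13.6% of all genes fell. In the same fits 5 of them rose in HCT116 and 2 in T47D cells, against 19.0% and 12.7% of all genes. The fit for HCT116 cells left the block out, and with it 12 rose and 5 fell, against 23.4% and 24.3% of all genes. The rising SIN3-HDAC genes numbered 2 in A549, 6 in HCT116, 8 in PC3 and 3 in T47D cells, against 15.1%, 19.0%, 12.9% and 12.7% of all genes, and the 5 MYC-repressed genes were still called higher in HCT116 cells. Of the mitochondrial genes, 0 were then called higher in HCT116 cells by edgeR, against 3 without the correction by edgeR and by DESeq2, and 3 were called lower in T47D cells with the correction and the replicate block. Leaving out each library in turn gave 15 to 19 falling ribosome biogenesis genes in A549, 5 to 10 in HCT116, 8 to 15 in PC3 and 0 to 5 in T47D cells, with 4 to 11 rising in HCT116 cells. The extremes came without hypoxic replicate 1 (4 rising) or normoxic replicate 1 (11 rising) of HCT116, hypoxic replicate 3 of HCT116 (5 falling), hypoxic replicate 1 or 2 of PC3 (8 falling), and hypoxic replicate 1 or normoxic replicate 1 or 2 of T47D (0 falling). In those T47D fits 2.54%, 0.133% and 0.597% of all genes fell, against 6.69% with every library. The SIN3-HDAC genes that rose numbered 2 to 5 in A549, 3 to 6 in HCT116, 1 to 5 in PC3 and 0 to 2 in T47D cells. Without 1 library, 11.7% to 19.1%, 18.6% to 25.0%, 9.57% to 19.4% and 1.26% to 10.8% of all genes rose in the same order. The shares of all genes that fell were 10.4% to 18.6%, 19.6% to 24.2%, 6.40% to 20.1% and 0.133% to 12.2%. The PRC1.6 genes that fell numbered 1 to 4, 3 to 4, 1 to 3 and 0 to 5 in the same order, and the MYC-repressed genes that rose numbered 3 to 5 in HCT116 and 0 to 2 in T47D cells.

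Genes with a pattern most like those of MXI1 and MYC were sought over the 24 libraries, after centering log2 CPM on the mean of each line, among 11269 genes. Those most like MXI1 were ERO1L (Pearson r = 0.967), TMTC2 (0.964), NDRG1 (0.962), PLEKHA2 (0.960) and ZNF395 (0.956). NDRG1 and ZNF395 are on the same list of HIF targets as MXI1. Like MXI1, all 5 had their lowest fold change in PC3 cells, which the choice by likeness to MXI1 itself favors. ERO1L, an oxidase of protein folding, was at 1.21 (log2) in A549, 1.52 in HCT116, 0.38 in PC3 and 2.27 in T47D cells. Those most like MYC were FSCN1 (r = 0.954), CDC42EP2 (0.938), PABPC4 (0.938), TARSL2 (0.937) and SRF (0.932). FSCN1, which bundles actin, was at 0.49, 1.27, 0.49 and 1.45 and SRF, a factor of growth and cytoskeleton genes, by 0.53, 0.91, 0.02 and 0.59 in the same order. Libraries that share a line and an oxygen state are not independent points, so these r values describe likeness and carry no test.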

How the data were processed

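Polyadenylated RNA of 24 libraries, 3 for each of 8 groups, was analysed. The authors made the deposited counts by trimming reads with Trim Galore 0.3.3, aligning them with HISAT2 to GRCh37, removing fragments without a unique position with Picard 2.0.1 and counting fragments per gene symbol with HTSeq 0.5.4p3 (intersection-strict). The library kit kept strand, but the strand setting of the counting is not given in the sources used here. Values are raw counts, 1 column per library, and totals had a median of 56109795.5.

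Each cell line was fitted alone with edgeR 4.0.16 in R 4.3.3 (TMM scaling, filterByExpr, quasi-likelihood test, Benjamini-Hochberg adjustment), over 13466 to 14085 genes, and differences between lines were fitted over all 24 libraries. CPM used TMM over all libraries and, on the log2 scale, a prior count of 2. RPKM used the length of the canonical transcript. GC content and length were found for 21589 of 23106 symbols in the GENCODE annotation of GRCh37. Floors of 3 counts cover counting error only. The edgeR fit per line, DESeq2, the replicate block and the GC and length correction were run on simulated A549 and T47D libraries. The interaction test was run on simulated libraries of all lines. The other alternatives were not simulated.

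Replicate numbers were taken to pair the libraries of a line where every same-numbered pair deviated together with r over 0.1. This held in PC3 cells (r = 0.158, 0.126 and 0.118) and T47D cells (0.225, 0.329 and 0.305). It did not hold in A549 cells (0.253, 0.149 and 0.0503) or HCT116 cells (0.344, 0.258 and 0.0890). The values 0.344 and 0.258 in HCT116 cells exceeded every PC3 value, so the split rests on the cut at 0.1. The labels do not say what a shared number means.

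All 8 members are named. From each list the text names up to 2 genes per direction, those called that way in the most lines and in at least 2, with ties broken by mean absolute log2 fold change, and every gene of lists of 5 or fewer. The 5 genes with the highest Pearson r to MXI1 and to MYC are also named. A gene that this rule names and a line marker are not reported here. The members and the lists were chosen with earlier results of these data known. Alternatives were DESeq2 1.42.0, RLE size factors, total-count scaling, a minimum mean count of 50, no filter, 1 fit of all libraries, a fold change over 1.5, the replicate block, a GC and length correction with and without it, leaving out each library, and other lengths. The length over all annotated exons was added after seeing the data.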

Additional observations from a re-analysis of the deposited data

Results flagged for a closer look

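The change in hypoxia differed between cell lines for 4 members, by the test of the interaction of cell line and oxygen state over all 24 libraries (edgeR quasi-likelihood test, adjusted over all genes). MXD1 had an adjusted p of 0.00588, with log2 fold changes from 0.26 in T47D to 1.96 in HCT116 cells. For MXI1 it was 0.00760, with log2 fold changes from 0.40 in PC3 to 2.25 in T47D cells. MYC followed at 0.00819, with 0.03 in PC3 and 1.08 in HCT116 cells, and MNT at 0.0103, with 0.35 in PC3 and 1.81 in HCT116 cells. Leaving out replicate 2 of every group raised these p values to 0.251, 0.159, 0.261 and 0.367 in the same order. Groups of 3 libraries were too small to look for single libraries that stand apart.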

How the results depend on the processing

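MXI1 and MXD4 were called higher in A549 and HCT116 cells under every alternative and without any 1 library. The number of members called higher was less stable. In A549 cells it was 3 with total-count scaling, with 1 fit of all libraries and with a fold change over 1.5, and 3 to 5 without 1 library. In these fits 12.8%, 8.87%, 10.1% and 11.7% to 19.1% of all genes were called higher, against 17.6% otherwise. In PC3 cells it was 1 with 1 fit of all libraries or a fold change over 1.5, 2 with the GC and length correction (with and without the replicate block), and 2 to 4 without 1 library. The shares of all genes called higher there were 5.39%, 7.57%, 12.9% and 11.7%, and 9.57% to 19.4% without 1 library, against 16.6% otherwise. In T47D cells it was 1 to 4 without 1 library, where 1.26% to 10.8% of all genes were called higher, against 6.55% otherwise. The number of members whose response differed between lines was 0 to 5 without 1 replicate number. In those fits 1.02% to 15.3% of all genes differed, against 18.3% with every library. The PC3 value of MXI1 was not called with total-count scaling (0.37), 1 fit of all libraries (0.46) or a fold change over 1.5 (0.40), and it was 0.32 to 0.47 without 1 library. MYC in T47D cells was 0.82 to 1.12 without 1 library.

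Changes of sign were seen only for values that were not called under that alternative. With the GC and length correction, with and without the replicate block, MAX in A549 cells was 0.02, MNT and MGA in PC3 cells were -0.01 and -0.09, and MYC in PC3 cells was -0.02 with the block and -0.01 without it. MXD3 in T47D cells was 0.05 with 1 fit of all libraries. Without 1 library, MAX in A549 was -0.10 to 0.01, MYC in PC3 -0.03 to 0.10, MXD3 in T47D -0.15 to 0.16 and MGA in T47D -0.38 to 0.05. The difference of the MXI1 share between states in HCT116 cells was 9.80 percentage points without length and 12.1 with all exons, and in PC3 cells -1.51 and -1.14. The PC3 difference of MYC against its antagonists was -0.47 without length. The causes were not tested.

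Total-count scaling moved the median of all genes to -0.13 in A549 and -0.12 in T47D cells, and the share of calls that were higher from 49.8% to 33.9% and from 49.5% to 32.1%. The replicate block alone changed no call of a member in the single-line fits. It brought MXD4 (0.0162) and MGA (0.0221) past the threshold of the interaction test, for 6 members in all. In A549 and HCT116 cells the libraries were not taken as paired. There the replicate block left 5 and 6 members called higher, and every library except normoxic replicate 3 correlated best with its own number. Over other alternatives 294 of 320 values kept direction and side of the threshold, and over left-out libraries 164 of 192.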
